A study of Enchytraeus crypticus with 9 samples.

Results

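The comparison concerned adult *Enchytraeus crypticus*, a pale soil annelid used in ecotoxicity tests, exposed to UV Dose 2 (8100 J/m2 in total) and set against Control worms kept under laboratory illumination. Each group held 3 arrays, and each array received RNA from the whole bodies of a separate pool of 40 worms after 5 days in ISO reconstituted water. The UV Dose 2 worms were irradiated daily with a UVB lamp whose UVC was filtered out, and they shared the water, the duration and the laboratory light with the Controls. UV Dose 1 (7500 J/m2), also with 3 arrays, entered the statistical fit and is cited only where it bears on UV Dose 2. Gene probes were taken when their signal was positive and significantly above background on all 6 arrays, which held for 28189 of 43750 gene probes (64.4%). Outlier flags removed 64 of them, and 28125 probes were tested. Values are expression levels, that is, log2 fluorescence intensities after SVCD normalization, which scales group averages with genes that show no evidence of variation. They are comparable between arrays for one probe, not between probes.

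UVB is absorbed by DNA and links neighboring pyrimidines, which blocks transcription and replication until the lesions are repaired, by photolyases in many animals or by nucleotide excision. It also raises reactive oxygen species, which damage lipids and proteins. In a worm analyzed whole, a transcript can differ because fewer cells of a type were present or because each cell held less of it, and these cannot be told apart. The files identify each probe by an assembled contig or by a single sequencing read, without a gene name, so no probe was assigned a function, and neither the tissue nor the repair genes could be checked by name.

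The arrays lay on 4 slides, and no slide held both groups. The 3 UV Dose 2 arrays shared slide 4 with UV Dose 1 replicate 1, while the Control arrays lay on slides 1, 2 and 3, slide 2 also holding UV Dose 1 replicates 2 and 3. Dose and slide therefore cannot be told apart from the 6 arrays alone, and UV Dose 1 is the only link between them. Controls were also less alike than the UV Dose 2 arrays. Levels correlated at 0.977 to 0.988 between UV Dose 2 arrays and at 0.946 to 0.973 between Control arrays, across probes. A UV Dose 2 array and a Control array correlated at 0.947 to 0.981, so Controls were no closer to each other than to UV Dose 2 arrays. The median SD of a probe was 0.25 over the UV Dose 2 arrays and 0.35 over the Control arrays, and 67.5% of probes had the larger SD in the Controls. Signal on negative-control spots varied more on Control replicates 2 and 1 (SD of 18.8 and 10.9 intensity units) than on the other 7 arrays (1.45 to 4.55).

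Under UV Dose 2, 1376 probes were differentially expressed, which is 4.89% of those tested (limma, adjusted p under 0.05). Over-expression was found for 490 probes (1.74%) and under-expression for 886 (3.15%). The median fold change was 2.45 among over-expressed probes and 2.38 among under-expressed probes (2.34 with bounds for probes dim throughout 1 group), and the interquartile range over both was 2.02 to 3.22. On every called probe the 3 UV Dose 2 arrays lay entirely on one side of the 3 Control arrays, as they did for 24.5% of all tested probes. The number of calls depended on most of the arrays. It was 724, 505 and 442 without UV Dose 2 replicates 1, 2 and 3, it was 830, 805 and 852 without Control replicates 1, 2 and 3, it was 845 without UV Dose 1 replicate 3, and it was 1106 and 1319 without UV Dose 1 replicates 1 and 2. With slide as a random block (correlation 0.34) 571 probes were called, 570 of them also called without it. With slide as a fixed block limma called 0 probes, and 2211 had an unadjusted p under 0.05. In that fit all 1376 probes kept their direction, as did 73.0% of the tested probes, and the median absolute log2 change of the 1376 was 1.17, against 1.26 without the block. The 1376 were chosen from these same arrays, which favors a kept direction. Control replicates 1 and 3 were alone on their slides, so that fit took its difference from Control replicate 2 alone, by way of the UV Dose 1 arrays.

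**Figure D1:**
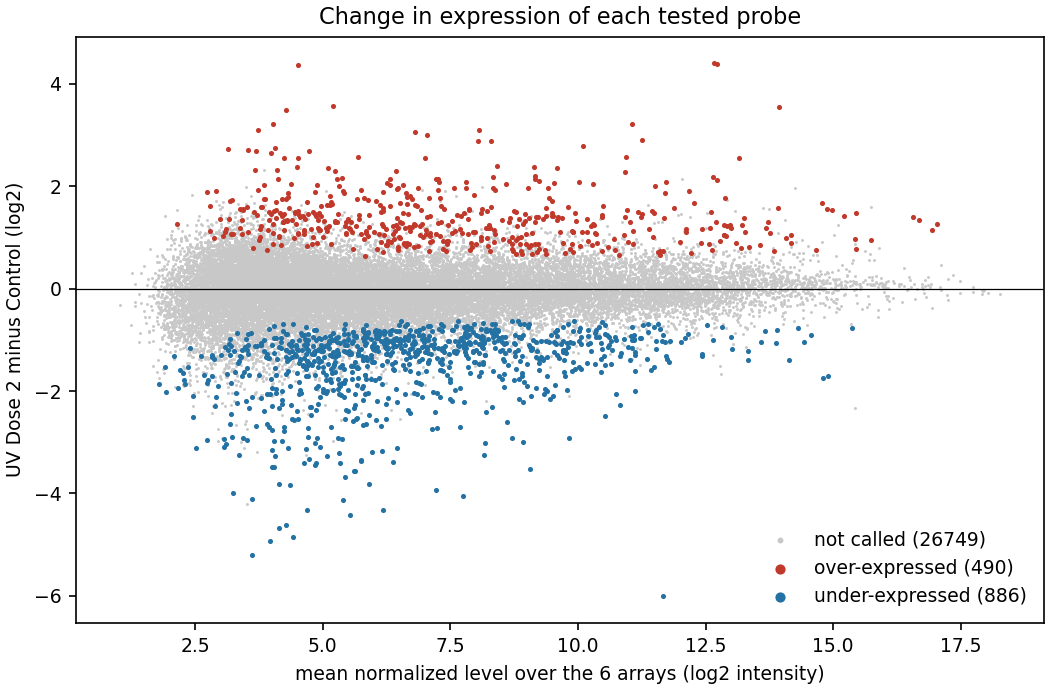
Log2 change of each of the 28125 tested probes, UV Dose 2 minus Control, against its mean normalized level over the 6 arrays (log2 intensity), colored by call. The 490 over-expressed and 886 under-expressed probes span nearly the whole range of levels, and the lowest point among them, at -6.004, is contig19694.

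With the background correction used here, the largest changes were mostly decreases. For a called probe that was not well above background anywhere in 1 group, a nominal bound stands in for the fold change. This applied to 47 probes dim under UV Dose 2 and 5 probes dim in Controls, of which contig17280 alone gave no bound. The bounds are not strict, since they use the lowest level flagged well above background, and some probes missed the flag at higher levels. Counted by these bounds, over 4-fold changes were found for 63 over-expressed and 149 under-expressed probes, over 8-fold changes for 10 and 44, and over 16-fold changes for 3 and 8. Among probes with a measured fold change alone, the counts past 4-fold were 62 and 136 and those past 8-fold 10 and 38. Over-expressed probes were 36.2% of calls past 2-fold and 18.5% of those past 8-fold, by the bounds. These sizes depended on the background correction. With another one (normexp, described below), 9 of the 10 largest decreases and 6 of the 10 largest increases moved by more than 1.5 times. Among these decreases, contig19694 was then 58.9-fold lower and the next, contig02735, 4.79-fold. Among the increases, GYUW2K402HSXGV, GYUW2K402HFWBH and contig09612 were 20.2-fold, 19.4-fold and 11.1-fold higher. By the fitted change, a further 3 probes stood over 4-fold higher in UV Dose 2 worms and 56 over 4-fold lower without being called. Their median Control SD was 1.63, against 0.30 for called probes of that size.

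**Figure D2:**
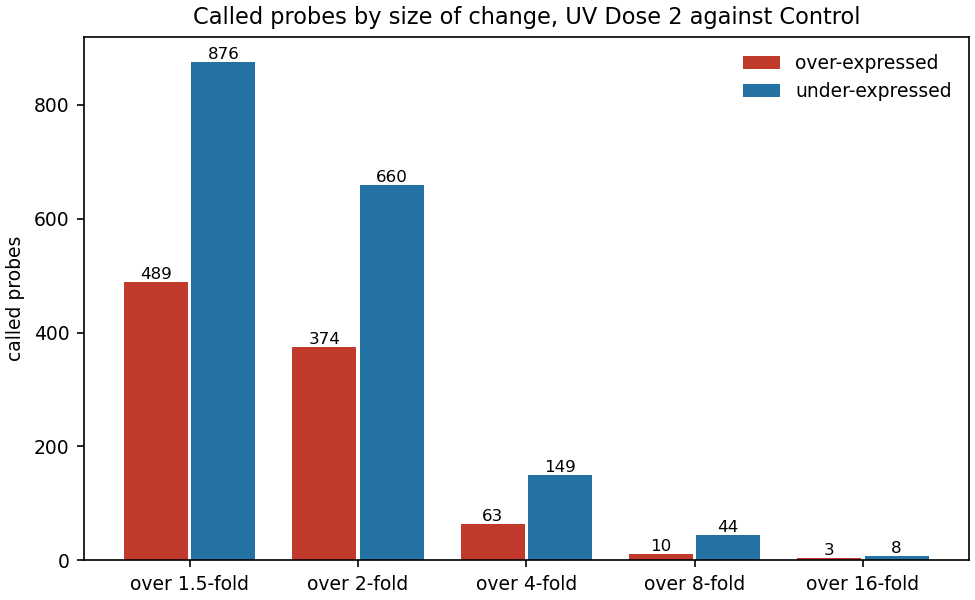
Number of called probes (vertical axis) whose change exceeded each fold threshold (horizontal axis), with over-expressed probes left and under-expressed probes right, and with probes dim throughout 1 group counted by their bound. Past 2-fold, 374 probes were over-expressed and 660 under-expressed, and past 8-fold 10 were over-expressed and 44 under-expressed.

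The share of calls differed with the brightness of the probes. With the probes split into 4 equal groups by mean level, 1.88% of the dimmest were called, 5.05% and 6.73% of those in the middle and 5.92% of the brightest. Over-expressed probes were 45.7% of calls among the brightest (190 of 416) and 29.9% to 33.3% in the remaining groups. Probes designed on contigs and on single reads were called at similar rates, 4.99% (711 of 14246) and 4.79% (665 of 13879). None of these shares was tested.

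The split between directions changed with the scaling. Over-expressed probes were 35.6% of calls after SVCD normalization, which left the median change of all tested probes at -0.03 on the log2 scale. They were 59.4% after Median normalization (median change 0.13), 46.6% after Quantile normalization, 46.7% with the 75th percentile, 43.5% after cyclic loess and 16.5% after MedianCD normalization (median change -0.23). Leaving out Control replicate 1 gave 58.3%. With spike-in scaling the share was 29.1%, and without normalization it was 27.8%. The size of the excess of under-expressed probes is therefore relative to the scale used. Which direction held more calls turned round under Median normalization and without Control replicate 1.

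**Figure D3:**
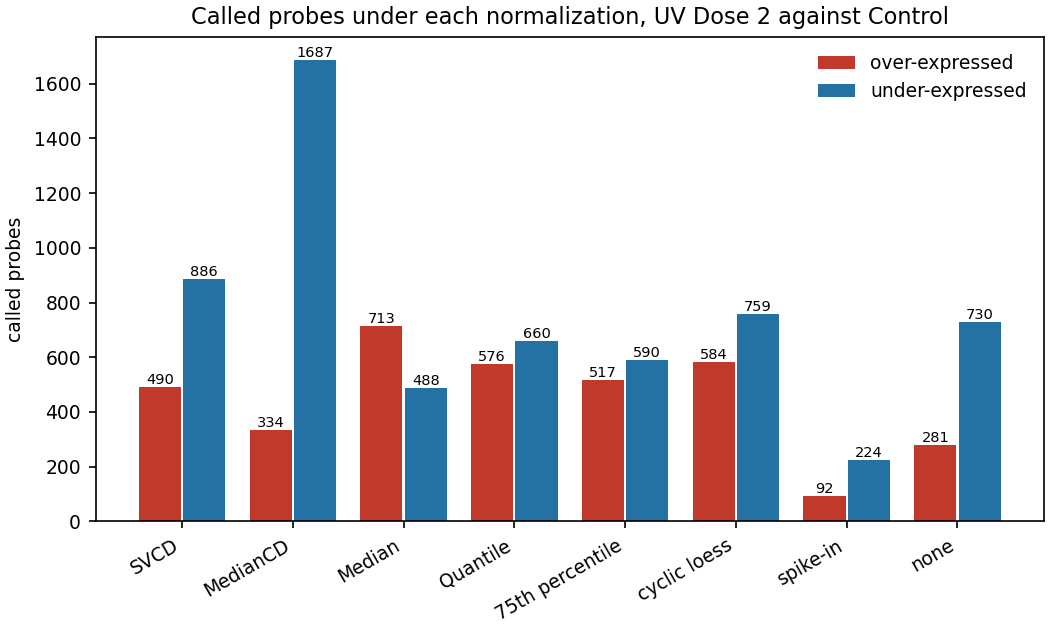
Called probes (vertical axis) after each normalization of the same 28125 probes (28109 for cyclic loess), over-expressed left and under-expressed right. Under-expressed probes were the more numerous except after Median normalization, with 713 over-expressed and 488 under-expressed.

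The sizes of change in dim probes depended on the background correction. With normexp, which ends by adding 50 intensity units to each spot and so compresses low levels, 16 of the 28 named fold changes moved by more than 1.5 times, while all 28 kept their direction. Its values are given beside the probes it moved.

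The largest over-expression was found in a pair of read probes that moved together. GYUW2K402HSXGV stood at 15.02, 14.80 and 14.74 in UV Dose 2 worms, against 10.98, 10.34 and 10.07 in Control worms, a 21.01-fold rise (log2 change 4.39 ± 0.29 SE, adjusted p = 3.15e-04 by limma). GYUW2K402HFWBH lay within 0.17 of it on each array and rose by 4.37 (adjusted p = 3.34e-04), and the pair is described together. Both were bright in Controls and brighter under UV, with a gap of over 3.7 between the groups. UV Dose 1 levels of GYUW2K402HSXGV were 14.06, 14.91 and 14.41, close to those of UV Dose 2.

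Contig03157 was near the background in Control worms and clearly expressed in irradiated ones. Its levels were 6.90, 6.59 and 6.62 under UV Dose 2, against 2.13, 2.17 and 2.71 in Controls, a log2 change of 4.36 ± 0.36 SE (adjusted p = 5.88e-04, limma). Only 1 of the 3 Control arrays had it well above background. UV Dose 1 worms were in between, at 4.68, 3.83 and 5.37. Contig18767 gave the same order, with 6.84, 7.32 and 6.78 under UV Dose 2, against 3.44, 2.94 and 3.89 in Controls (log2 change 3.56 ± 0.29 SE, adjusted p = 5.67e-04). Its UV Dose 1 levels were 4.82, 5.12 and 5.43. With normexp the log2 changes at UV Dose 2 were 1.35 for contig03157 and 1.41 for contig18767.

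Contig22777 separated the doses most clearly among the named probes. It had levels of 12.72, 12.57 and 12.72 in UV Dose 2 worms, against 9.86, 9.62 and 8.92 in Control worms, a 9.20-fold rise (log2 change 3.20 ± 0.26 SE, adjusted p = 5.88e-04, limma). UV Dose 1 worms had 10.20, 10.76 and 10.59, a change from Control of 1.05 with an adjusted p of 0.060. UV Dose 2 exceeded UV Dose 1 by 2.15 ± 0.26 SE, with an unadjusted p of 2.44e-05 and an adjusted p of 0.23. The difference was 2.47 from UV Dose 1 replicate 1, which shared its slide. GYUW2K402IXGOU was similar at lower levels, with 5.23, 5.42 and 5.20 under UV Dose 2, against 3.1, 2.44 and 1.02 in Controls. No Control array had it well above background, so its rise is given by a nominal bound of 5.02-fold on this scale (adjusted p = 0.0088, limma). With normexp it rose 1.47-fold, and its UV Dose 1 levels of 2.87, 3.49 and 3.58 overlapped the Controls. No probe of the 28125 passed the adjusted threshold between UV Dose 2 and UV Dose 1 (limma, smallest adjusted p 0.15), and 1004 had an unadjusted p under 0.05.

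The other large increases differed less between the doses. Contig09612, already among the bright probes, had 15.59, 15.82 and 15.72 under UV Dose 2, against 12.74, 11.92 and 11.84 in Controls (11.6-fold, adjusted p = 5.50e-04, limma). GYUW2K401DSH4W and contig01426 rose by 3.49 and 3.21 and were well above background on 1 of 3 Control arrays each. Their UV Dose 1 changes were 2.93 and 3.07, and with normexp their UV Dose 2 changes were 0.82 and 0.86. Among the 10 largest increases contig22428 had the tightest groups, with 9.56, 9.64 and 9.65 under UV Dose 2, against 6.57, 6.52 and 6.46 in Controls (SD 0.05 and 0.06). Its log2 change was 3.097 ± 0.19 SE at UV Dose 2 (2.51 with normexp) and 2.20 at UV Dose 1. The smallest p values among increases were those of contig22428 and of contig09936, which rose by 2.91 ± 0.18 SE (adjusted p = 3.06e-04 each, limma).

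**Figure D4:**
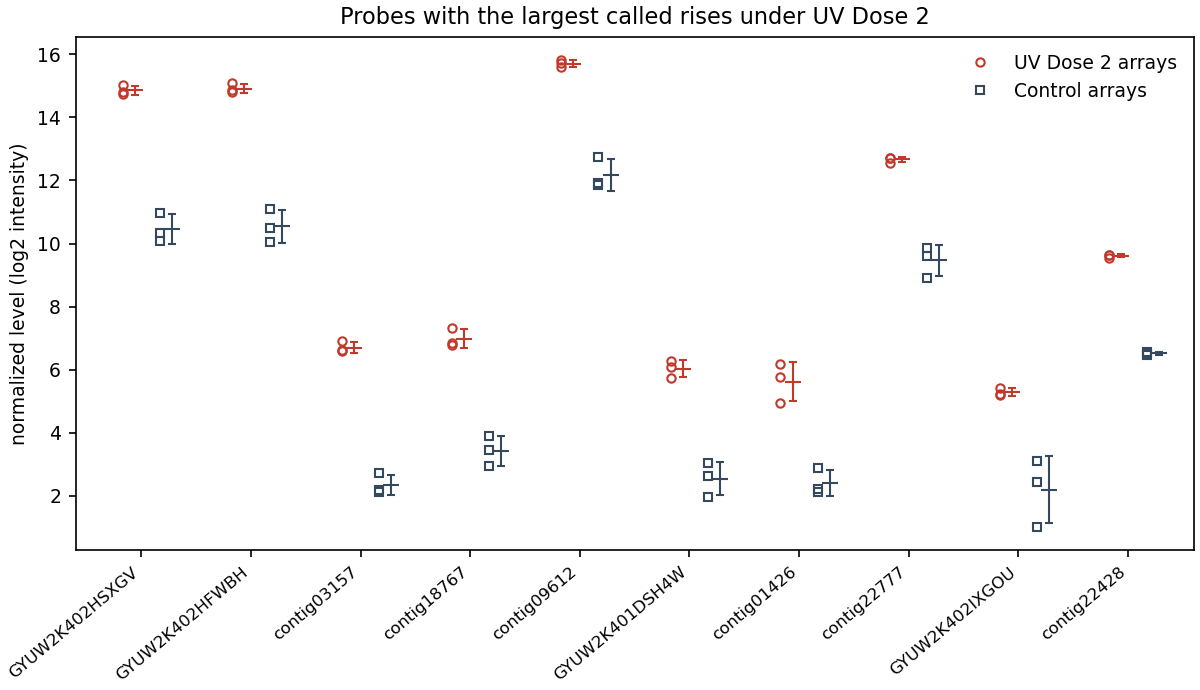
Normalized level (log2 intensity, vertical axis) of the 10 probes with the largest called increases (horizontal axis), for 3 UV Dose 2 arrays (circles, left) and 3 Control arrays (squares, right), with the mean and SD beside the points. The groups are apart for each probe, by 2.05 or more.

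Contig19694 had the largest change of all probes tested. It stood at 8.55, 8.63 and 8.81 in UV Dose 2 worms, against 14.50, 14.88 and 14.63 in Control worms, 64.2-fold lower under UV (log2 change -6.004 ± 0.296 SE, adjusted p = 1.94e-04, limma). All 6 arrays had it well above background, so the fold change is measured and not a bound. The groups were 5.69 apart. UV Dose 1 worms had 9.77, 8.83 and 10.01, and their change from Control was -5.13. Within slide 4 the UV Dose 2 mean lay 1.10 below UV Dose 1 replicate 1, and within slide 2 UV Dose 1 lay 5.46 below Control replicate 2.

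Among the large decreases, 5 probes had UV Dose 2 signals that were never well above background and were clearly expressed in Controls. GYUW2K401C5ESY had measured levels of 2.44, 1.46 and 2.10 under UV Dose 2, against 6.67, 6.96 and 6.91 in Control worms. Its nominal bound was 19.2-fold lower under UV on this scale. The bound was 16-fold for GYUW2K401BGVCK, 14.5-fold for contig16478, 14.3-fold for GYUW2K401A02DA and 12.5-fold for contig16792. Adjusted p values of the 5 were 3.06e-04 to 0.0053 (limma). With normexp the same 5 probes were 2.16-fold to 2.82-fold lower, so the size of these decreases depended on the background correction. In Controls the 5 lay between 6.10 and 6.96, and their UV Dose 1 changes of -3.95 to -5.13 were of the same order. In all, 47 called probes lay below this limit on every UV Dose 2 array, with bounds of 1.06-fold to 19.2-fold (median 2.58-fold).

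The converse, called probes whose Control signals were never well above background, held for GYUW2K402IXGOU, contig17374, contig16564, contig11301 and contig17280. Apart from the first, these were chosen after their values were seen. Contig17280 was well above background on only 1 of the 3 UV Dose 2 arrays and gave no bound. Contig17374 was the most regular, with 4.51, 4.35 and 4.65 in UV Dose 2 worms, against 1.95, 1.70 and 1.73 in Control worms (nominal bound 2.98-fold higher, adjusted p = 3.12e-04, limma). With slide as a random block contig16564, contig11301 and contig17280 were not called (adjusted p 0.094, 0.11 and 0.20), and contig17280 was not called with the replicate block (adjusted p 0.063).

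The remaining large decreases were measured in both groups. Contig12422 had 3.46, 3.17 and 3.36 under UV Dose 2, against 7.82, 7.56 and 7.85 in Controls (21.3-fold lower, adjusted p = 3.64e-04, limma). Contig14888 was 19.9-fold lower and was well above background on 2 of the 3 UV Dose 2 arrays. Contig02735 and contig02734, with consecutive contig numbers, fell together. The first had 4.50, 3.76 and 3.80 under UV Dose 2, against 8.36, 8.47 and 8.16 in Controls, and the second 3.94, 3.45 and 2.59, against 7.16, 7.79 and 7.44. Their changes were -4.31 and -4.13. With normexp contig12422 was 3.77-fold, contig14888 2.94-fold, contig02735 4.79-fold and contig02734 3.43-fold lower. GYUW2K401DR769 had the smallest p of all probes, with 4.02, 3.74 and 3.79 under UV Dose 2, against 7.60, 7.28 and 7.35 in Controls (log2 change -3.56 ± 0.17 SE, adjusted p = 1.94e-04, limma). Its change was -1.65 with normexp. UV Dose 1 levels of 3.95, 3.89 and 4.07 lay close to those of the higher dose.

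**Figure D5:**
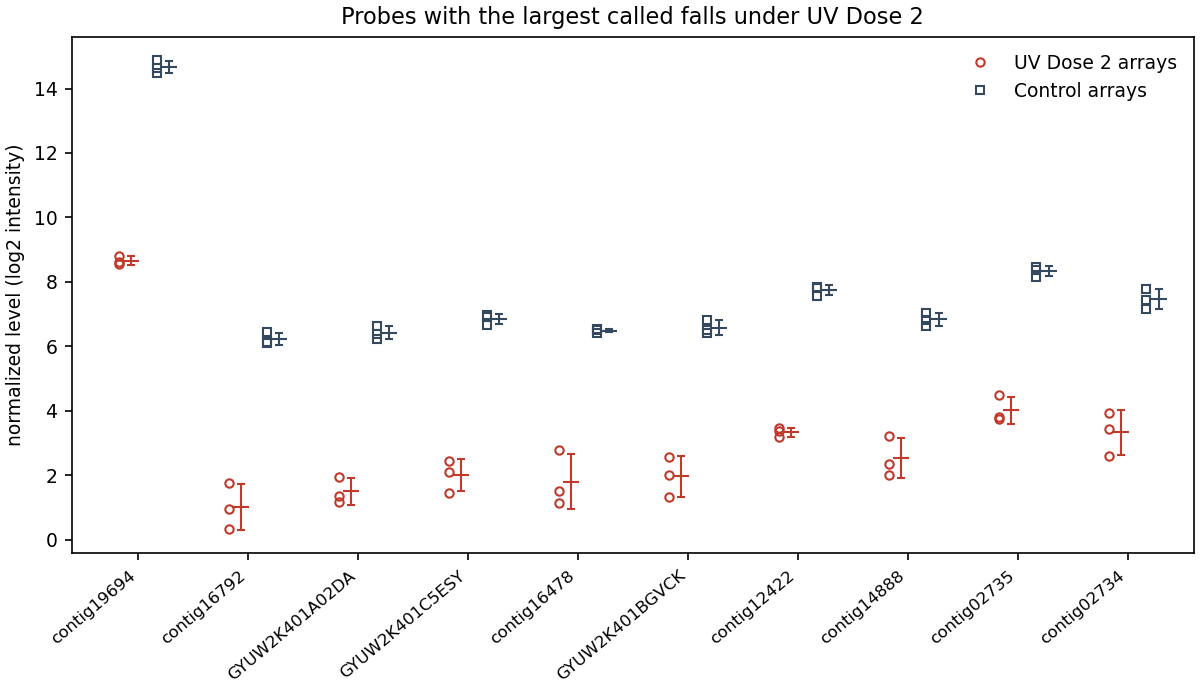
Normalized level (log2 intensity, vertical axis) of the 10 probes with the largest called decreases (horizontal axis), for 3 UV Dose 2 arrays (circles, left) and 3 Control arrays (squares, right), with the mean and SD beside the points. The UV Dose 2 arrays lie 3.22 or more below the Control arrays for each probe, and contig19694 lies apart from the rest with Control levels over 14.

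Changes in the brightest called probes were smaller. Contig11584 had 17.44, 17.70 and 17.86 under UV Dose 2, against 16.07, 16.64 and 16.50 in Controls, a 2.40-fold rise (adjusted p = 0.014, limma). Contig00751 differed from it by at most 0.20 on each of the 6 UV Dose 2 and Control arrays and rose by 1.13. Contig18233 rose by 1.34 ± 0.19 SE (adjusted p = 0.0060, limma). No gene probe was saturated on any array. Among the brightest decreases, GYUW2K401D5N75 had 15.07, 14.78 and 15.12 under UV Dose 2, against 15.73, 15.73 and 15.82 in Controls, a change of -0.77 ± 0.18 SE (adjusted p = 0.046). GYUW2K402GGCE5 and GYUW2K402G8V8Y, within 0.18 of each other on each array, fell by 1.71 and 1.75 with adjusted p of 0.046 and 0.043. With slide as a random block these 3 decreases were not called (adjusted p 0.089 to 0.13), while the other 25 named probes were.

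UV Dose 1 and UV Dose 2 were set against the same Control arrays, so their changes are given side by side. The 490 probes over-expressed under UV Dose 2 had a median log2 change of 1.29 at UV Dose 2 and 1.01 at UV Dose 1. The 886 under-expressed probes had medians of -1.25 and -1.30. Since both sets were chosen at UV Dose 2, larger changes there are favored by the choice. Between the doses directly, 105 of the over-expressed probes (21.4%) had an unadjusted p under 0.05, against 60 of the under-expressed (6.77%) and 3.57% of all tested.

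The change at UV Dose 1 had the same sign for 486 of the 490 over-expressed and 885 of the 886 under-expressed probes. Over all 28125 tested probes it did for 22839. In that direction 287 and 736 of the called probes were also called at UV Dose 1, where 5.23% of all tested probes were called. Both changes used the same Control arrays, which favors the same sign. For 5 of the 1376 called probes the change at UV Dose 1 had the other sign. Contig11596 had 7.76, 7.58 and 7.56 under UV Dose 2, against 6.68, 5.74 and 5.58 in Controls, and its UV Dose 1 levels of 5.70, 6.005 and 6.04 lay among the Controls (UV Dose 2 minus UV Dose 1, 1.71 ± 0.28 SE, adjusted p 0.44, limma). Contig19201, contig16684 and GYUW2K401CXTEK also had UV Dose 1 changes near 0, from -0.15 to 0.03, with UV Dose 2 changes of 1.21, 0.96 and -0.69. Contig13054 alone among the called probes had UV Dose 2 arrays all above and UV Dose 1 arrays all below the Controls. With slide as a random block contig19201, contig13054 and GYUW2K401CXTEK were not called (adjusted p 0.094, 0.13 and 0.11), and GYUW2K401CXTEK was not called with the replicate block (adjusted p 0.052). These probes were chosen after their values were seen.

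Measures of the array as a whole moved less. Median levels were 5.52, 5.61 and 5.59 on the UV Dose 2 arrays, against 5.64, 5.87 and 5.71 on the Control arrays, a difference of -0.17 (two-sided exact permutation p = 0.1, the smallest that 3 arrays against 3 allow). The groups did not overlap on the SVCD scale. The difference was -0.37 after MedianCD normalization, -0.085 with the 75th percentile and -0.073 after cyclic loess (exact permutation p = 0.1 each), -0.21 without normalization (p = 0.4), -0.14 with spike-in scaling (p = 0.6) and -0.082 for probes well above background on the 6 arrays (p = 0.3). Spike-in transcripts, added during labeling, averaged 13.12 ± 0.40 under UV Dose 2 and 13.20 ± 0.22 in Controls (SD, n = 3 each, exact permutation p = 0.8). The number of probes well above background was 27829, 26108 and 29678 under UV Dose 2, against 25687, 21285 and 31912 in Controls, so the UV Dose 2 arrays lay within the Control range (difference 1577, exact permutation p = 0.7). Without Control replicate 2 the difference was -928.

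Some probes were detected in a single group. Of 43657 probes without outlier flags on the 6 arrays, 56 were well above background on all UV Dose 2 arrays and on no Control array, against 64 with the opposite pattern. With the less strict flag for a positive and significant signal the counts were 89 and 39, so which group had more depended on the flag. Of the 56 probes well above background, 46 had not passed the signal filter and were not tested, and 26 of the 64. The largest nominal bound among untested probes was for contig17185, 24.4-fold lower under UV Dose 2, with processed intensities of 6.60, 1.58 and 1.38, against 116.1, 153.8 and 194.5 in Controls.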

How the data were processed

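Each of 9 single-color arrays was labeled from a pool of 40 worms, per the labels. The authors scanned them and quantified spots with Feature Extraction 10.7.3.1, and the deposited files hold background-subtracted intensities on a linear scale, without normalization between arrays. The deposited table holds the same intensity, rounded (largest difference 0.497%), and was used only as an alternative. The labels of UV Dose 2 name the other dose in 1 text field, so title and treatment were used.

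Log2 intensities, without pseudocount, were SVCD-normalized (rewritten in R 4.3.3 from the methods: 1% of probes trimmed by variance, Kolmogorov-Smirnov level 0.001). That step used 9433 no-variation genes. Group means of the 9 arrays were fitted with limma 3.58.1 (3 groups, 6 residual degrees of freedom, two-sided tests, Benjamini-Hochberg over all tested probes). On UV Dose 1 arrays, 16 outlier spots were missing in the fit. Single values per array were compared by exact permutation. Spike-in levels used the 8 of 10 transcripts inside the linear range.

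Probes were named as follows, among called probes whose groups did not overlap: the 10 largest rises and 10 largest falls, the 3 brightest and the 2 with the smallest p in each direction. Where no array of a group had a probe well above background, its fold change is a nominal bound, except for contig17280, which gave none. The brighter group's mean level was set against the dimmer group's mean of the higher of its own level and the lowest level well above background on each array. The flag did not follow the level alone, so these bounds are not strict. On UV Dose 2 replicate 2, GYUW2K401CFJZH missed the flag at an intensity of 10.31, while GYUW2K402I1F3H had it at 7.88. The planned gene lists were not run, since probes carry no gene names, and no probe sequence or genome position was used here. Members, lists and tests were chosen with earlier results of these data known.

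Replicate numbers are shared between the groups, and same-numbered arrays of UV Dose 2 and Control deviated together from their group means (correlations across probes of 0.55, 0.27 and 0.29). Differently numbered arrays correlated at -0.373 to 0.175. Among them, UV Dose 2 replicate 2 with Control replicate 3 (0.175) and UV Dose 2 replicate 3 with Control replicate 2 (0.143) were positive too. No label says what a number shares. Alternatives covered normalization, background correction, filters, slide and replicate blocks, the test and leaving out each array. The 3 arrays per group limit the precision of every value.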

Additional observations from a re-analysis of the deposited data

Results flagged for a closer look

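Contig13054 moved in opposite directions at the doses. Its levels were 9.24, 9.08 and 9.38 in UV Dose 2 worms, against 8.68, 8.45 and 8.56 in Control worms (log2 change 0.68 ± 0.16 SE, adjusted p = 0.049, limma), while UV Dose 1 worms had 7.88, 7.79 and 7.93 (change -0.69, adjusted p = 0.043). All 3 arrays of each dose lay on their own side of the Controls. The difference between the doses was 1.37 ± 0.16 SE, with an unadjusted p of 1.58e-05 and an adjusted p of 0.22 over all tested probes, so it did not pass the threshold. With slide as a random or as a fixed block the change from Control was not called either (adjusted p = 0.13 and 0.69, limma). UV Dose 1 replicate 1, at 7.88, was the only UV Dose 1 array on the slide of the UV Dose 2 arrays. The part of the slide in this difference was not tested.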

How the results depend on the processing

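All 28 named probes kept their direction wherever they were tested, under every normalization, filter, block and left-out array run. They were chosen among called probes and their groups lay 0.60 or more apart, so the choice itself favored a kept direction. Over all alternatives, 703 of their calls stayed and 97 were lost. The 703 include 28 from a minimum of 1.5-fold, which could take no call, since the smallest called fold change was 1.54. They also include 28 from leaving out the last 22 rows of the array, which held none of these probes. The fixed slide block took every named call (adjusted p up to 0.64). Normexp moved 16 of the 28 fold changes by more than 1.5 times, such as contig16792 with a log2 change of -1.11, against -5.21, and left folds of 1.47 to 58.9. Elsewhere the brightest decreases, GYUW2K401D5N75, GYUW2K402GGCE5 and GYUW2K402G8V8Y, lost their calls most often. The number of called probes was 316 with spike-in scaling, 722 without a filter on dim probes, 717 with only the 6 arrays, 274 by the methods' t-test after Benjamini-Hochberg (4617 at an unadjusted p under 0.05), 571 with slide as a random block and 0 with slide as a fixed block. Leaving out single arrays gave 442 to 1319. The replicate block gave 1645 calls, 1260 of them shared. It took none of the calls of these 28 probes. The balance, the mean of +1 for over- and -1 for under-expressed calls, was -0.29. It turned to 0.19 after Median normalization, and it was -0.068 after Quantile normalization, -0.67 after MedianCD normalization, -0.066 with the 75th percentile, -0.42 with spike-in scaling, -0.44 without normalization, -0.45 with the deposited table, -0.13 after cyclic loess, -0.21 for probes well above background on the 6 arrays, -0.20 without a filter, -0.38 with normexp, -0.36 with only the 6 arrays and -0.19 with slide as a random block. Single arrays left out moved it between -0.36 and 0.17. The median level difference was 0.0039 without a filter on dim probes, is 0 by construction after Median and Quantile normalization, and ranged from -0.23 to -0.053 with arrays left out. Leaving out arrays moved the spike-in difference between -0.28 and 0.11 and that of detected probes between -928 and 4386. After Median normalization the share called was 4.51% of contig probes, 4.03% of read probes, and, in the 4 groups by level, 4.04% of the second dimmest and 5.75% of the second brightest. The cause of these shifts was not tested. Slide and dose cannot be told apart. Signal on negative-control spots varied most on Control replicates 1 and 2, and its bearing on dim probes was not tested.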

Other observations

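Probes far higher on one Control array were gathered at one edge of the array. On Control replicate 2, 286 probes stood over 4-fold above both other Controls, and 178 of them (62.2%) were printed in the last 22 of 532 rows, which hold 3.91% of the tested probes. Control replicate 1 had 324 such probes, of which 4 lay in those rows. In the band, Control replicate 2 exceeded the mean of the other Controls by a median of 0.67, against 0.0071 elsewhere. Contig11435 was the most extreme. It had 1.03, 2.41 and 2.23 on the UV Dose 2 arrays, against 10.21 on Control replicate 2 and 2.48 and 1.98 on Control replicates 1 and 3. Its levels were 7.19 and 7.22 on UV Dose 1 replicates 2 and 3, which shared the slide with Control replicate 2, against 1.62 on UV Dose 1 replicate 1. Of the 56 probes over 4-fold lower under UV Dose 2 that were not called, 26 lay in the band. None of the 28 named probes did, and 42 of 1100 probes there (3.82%) were called. Of these 42, 9 were over-expressed and 33 under-expressed, against 490 and 886 among all calls. The median log2 change of the tested probes in these rows was -0.37, against -0.03 over all tested probes. Without these rows, an alternative chosen after seeing the data, 1350 probes were called, of which 472 were over-expressed.

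Contigs with consecutive numbers had the same sign of change in 51.4% of the 7862 consecutive pairs tested. Both members were called in 29 pairs, with the same direction in 21, where 4.99% of all tested contig probes were called. Whether 29 pairs exceed the number for unrelated probes was not tested. Contig14888, 19.9-fold lower under UV Dose 2, was followed by contig14889, which rose by 1.11 (adjusted p = 0.0082, limma). The numbers alone do not say how such contigs are related.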
